A study of Homo sapiens with 4 samples.

Results

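SAGA is a transcriptional coactivator complex with an acetyltransferase module, which acetylates histone H3 at gene promoters, a deubiquitinase module, which removes ubiquitin from histone H2B, and a core that holds them together and meets transcription factors and the basal machinery. The 10 genes described here encode its acetyltransferase and core subunits, as a list that leaves out the deubiquitinase module, SGF29, the TBP-associated factors and their relatives TAF5L and TAF6L, and the splicing factors SF3B3 and SF3B5. KAT2A (GCN5) and KAT2B (PCAF) are alternative catalytic subunits, and TADA2A, TADA2B and TADA3 are the adaptors that hold them. TADA1, SUPT3H, SUPT7L and SUPT20H belong to the core, and TRRAP is the large subunit that binds transcriptional activators. They were found by gene symbol in a table with 1 row of counts for each RefSeq mRNA accession, and such a row is called a transcript below. Each gene is described by its main row, the accession with the highest summed count. Of the 10 genes 8 were analysed, with 11 transcripts among 14540, while TADA2A and SUPT3H were not analysed here. The main rows of all 8 passed the filter on low counts.

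The transcripts were measured by sequencing mRNA of PLC/PRF/5, a human hepatocellular carcinoma line, in 2 libraries of cells with lentiviral interference against USP22 (shUSP22) and 2 libraries of control cells (NC). USP22 is the ubiquitin protease of SAGA's deubiquitinase module, so the comparison sets cells that lack most mRNA of 1 SAGA enzyme beside cells that have it. The cells of all 4 libraries were grown in high-glucose medium and spent 48 h in hypoxia, with 1% oxygen beside 5% carbon dioxide. No normoxic library was analysed here. The labels do not state how many hairpins were used, whether the knockdown cells were a pool or a clone, or whether replicates were separate cultures. The p-values then measure the spread between these libraries, which may be technical.

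The knockdown libraries held 15027209 and 17194929 counts and the control libraries 15621574 and 16536639. USP22 (NM_015276.1) had 5438 and 7683 counts in the knockdown libraries and 46513 and 41607 in the control libraries, which left 14.7% of the control level (95% interval 11.4% to 18.8%, adjusted p = 1.36e-06 by edgeR's quasi-likelihood test). All 12 hepatocyte and liver cancer markers had counts, and CPM, the count scaled for sequencing depth, was taken on TMM-scaled library sizes. Their summed level was 44750 and 35150 CPM in knockdown and 29880 and 27800 CPM in control libraries, so that both knockdown libraries were higher. Most of the sum was APOB and TF, and its higher level rests on APOB. APOB was at 27530 and 16630 CPM in knockdown and 11630 and 8796 CPM in control libraries. TF was lower in both knockdown libraries, at 14060 and 15350 CPM, against 16360 and 17030 CPM in control libraries. Of the 12 markers 4 rose and 0 fell, AFP (log2 fold change 1.13), APOB (1.11), FGB (1.19) and KRT18 (0.86), and the median of the 12 was 0.70. Over all tested transcripts 8.49% rose and 10.2% fell. Albumin (ALB), with 548 and 734 CPM in knockdown and 656 and 795 CPM in control libraries, did not pass. Of 12 markers of leukocytes, endothelium, stromal cells and bile duct cells 9 had rows, and their summed level was 287 to 480 CPM in knockdown and 369 to 435 CPM in control libraries. Most of that was LYZ, with 194 to 360 CPM in knockdown and 274 to 325 CPM in control libraries, and of the 9 the endothelial marker VWF was at 0 counts in 1 knockdown library. Of the 8 tested 1 rose and 1 fell, near those shares over all tested transcripts. The endothelial marker PECAM1 rose (log2 fold change 1.02, adjusted p = 0.0185, edgeR) and the bile duct marker KRT7 fell (-1.54, adjusted p = 0.0266, edgeR). The part of these levels in the results below was not tested.

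The promoters of the catalytic paralogs are shown because KAT2B was the member whose change passed the test and KAT2A the one that lay nearest to it with the opposite sign. The KAT2A promoter was added after the values were seen. Each is the 250 bases before the gene's start, 5′ to 3′ on its strand, from RefSeq on GRCh38.p14, which is not the build the submitters name. KAT2B lies on the + strand at chr3:20040196-20040445 and KAT2A on the - strand at chr17:42121368-42121617. Capitals mark matches on either strand to ACGTG or GCGTG, cores bound by hypoxia-inducible factors, or to CCAAT, a common promoter element.
KAT2B promoter: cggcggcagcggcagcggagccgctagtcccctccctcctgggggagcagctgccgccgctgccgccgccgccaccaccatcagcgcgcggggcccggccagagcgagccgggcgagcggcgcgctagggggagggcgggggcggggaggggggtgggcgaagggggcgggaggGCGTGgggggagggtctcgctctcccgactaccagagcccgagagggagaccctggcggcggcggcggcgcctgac
KAT2A promoter: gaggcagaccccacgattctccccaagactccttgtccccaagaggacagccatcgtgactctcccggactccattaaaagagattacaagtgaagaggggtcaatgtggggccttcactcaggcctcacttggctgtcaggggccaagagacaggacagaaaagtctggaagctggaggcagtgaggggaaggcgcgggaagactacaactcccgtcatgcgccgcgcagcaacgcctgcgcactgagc
The KAT2B window held 1 GCGTG and no other match, and 80.8% of its bases were G or C. The KAT2A window held none of the 3 motifs, with a G and C content of 58.8%. Of all 35116 promoter windows of this length 32.2% held GCGTG, 18.5% ACGTG and 32.0% CCAAT, so a single match of this kind is common. A match is a description of the letters and not a site.

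KAT2B fell in the knockdown, and it was the only one of the 8 main rows whose change passed the test in that fit. Its row (NM_003884.4) had 419 and 432 counts in the knockdown libraries, against 773 and 764 in the control libraries, or 27.7 and 25.2 CPM in knockdown cells against 48.8 and 47.2 CPM in control cells. Both knockdown libraries lay far below both control libraries, and the libraries of a group lay close together. The mean was 26.4 ± 1.80 CPM in knockdown and 48.0 ± 1.10 CPM in control cells (SD, n = 2 each), a log2 fold change of -0.86 ± 0.20 (SE; adjusted p = 0.0106, edgeR's quasi-likelihood test). The knockdown level was 55.0% of the control level, with a 95% interval of 40.5% to 74.7%. Without control replicate 1, where the control group is a single library, the log2 fold change was -0.83 and the adjusted p 0.0622. In bulk RNA a lower level per cell and fewer cells with KAT2B mRNA cannot be told apart. For KAT2B the authors' deposited table holds a q-value of 5.57e-05 beside a log2 fold change of -0.84.

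KAT2A, the paralog, was higher in both knockdown libraries than in either control library, but its change just missed the threshold. Its row (NM_021078.2) had 4368 and 6189 counts in the knockdown libraries, against 3364 and 3927 in the control libraries, or 289 and 360 CPM in knockdown cells against 212 and 243 CPM in control cells. Knockdown replicate 2 was the highest of the 4 libraries. The mean was 325 ± 50.6 CPM in knockdown and 228 ± 21.5 CPM in control cells, a log2 fold change of 0.51 ± 0.17 with a 95% interval of 0.14 to 0.88 (adjusted p = 0.053 and unadjusted p = 0.0101, edgeR's quasi-likelihood test). The call depended on the processing: KAT2A passed in 7 of 11 alternative fits, with adjusted p-values from 0.00104 to 0.32 over all of them. It passed with DESeq2 (adjusted p = 0.0434) and limma-voom (adjusted p = 0.0414). Without knockdown replicate 2 its log2 fold change was 0.35 (adjusted p = 0.225 in edgeR), and without knockdown replicate 1 it was 0.70 (adjusted p = 0.00104 in edgeR). For KAT2A the authors' deposited table holds a q-value of 0.00311 beside a log2 fold change of 0.53.

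**Figure D1:**
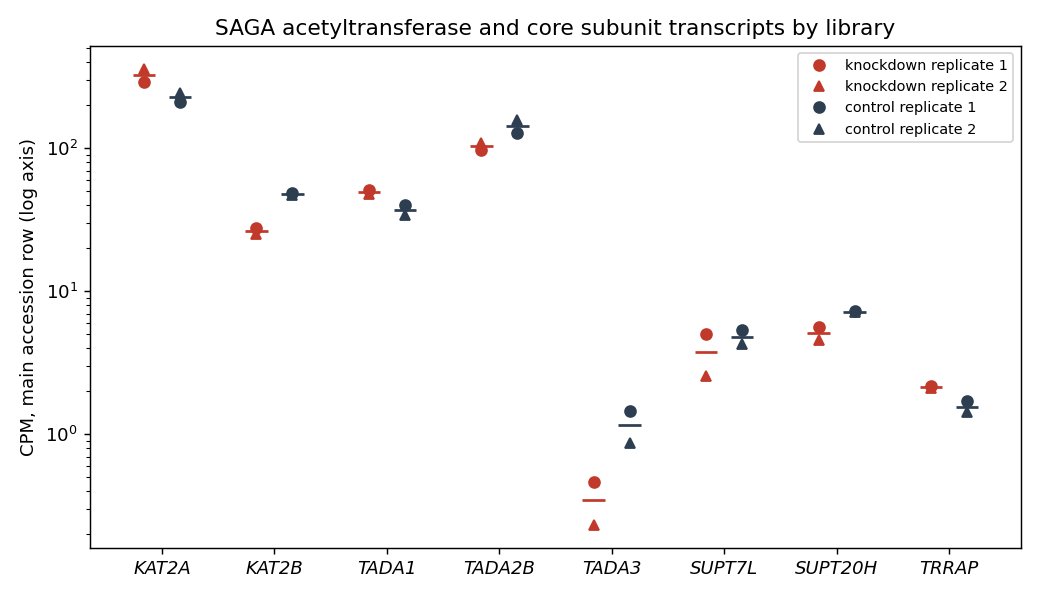
CPM of the main row of each of the 8 genes on a log axis, with 1 point per library and a line at the mean of each group, knockdown left of control. KAT2B is lower in both knockdown libraries (27.7 and 25.2 CPM) than in both control libraries (48.8 and 47.2 CPM), while TADA3, SUPT7L, SUPT20H and TRRAP lie under 10 CPM in every library.

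The balance of the paralogs lay further towards KAT2A in both knockdown libraries than in either control library. On the scale of CPM per kilobase of transcript, which allows genes to be compared, KAT2A was at 92.9 and 116 in knockdown libraries, against 68.3 and 78.1 in control libraries. KAT2B was at 5.73 and 5.20 CPM per kilobase in knockdown libraries, against 10.1 and 9.77 in control libraries. KAT2A was the more abundant paralog in every library. The ratio of KAT2A to KAT2B, which does not depend on library scaling, was 16.2 and 22.3 in knockdown libraries, against 6.77 and 7.99 in control libraries. The groups did not overlap, and the ratio was 2.58-fold higher in the knockdown. The exact two-sided permutation p was 0.33, the smallest that 2 against 2 libraries allow, so this test cannot decide whether the ratio differed. KAT2B made up 5.81% and 4.30% of the summed level of the pair in knockdown libraries, against 12.9% and 11.1% in control libraries. The sum itself was 98.6 and 121 CPM per kilobase in knockdown libraries, against 78.4 and 87.9 in control libraries. The sum was thus set mostly by KAT2A. Transcripts of the paralogs shared 0 stretches of 25 bases in GENCODE 29, so that a read of at least this length with no mismatch would belong to 1 of them.

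**Figure D2:**
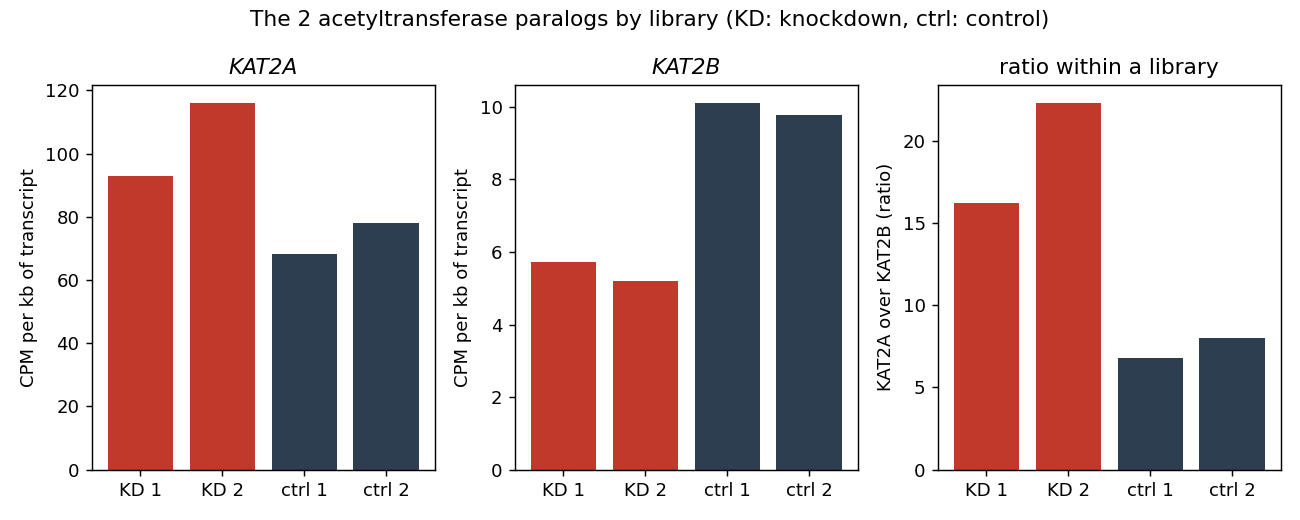
CPM per kilobase of KAT2A (left) and KAT2B (middle) and the ratio of KAT2A to KAT2B (right) in the 4 libraries, as bars from 0 with the knockdown libraries first. The ratio is 16.2 and 22.3 in the knockdown libraries and 6.77 and 7.99 in the control libraries.

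Among the adaptors, TADA2B is the form found in SAGA, where TADA2A takes its place in the related ATAC complex. TADA2B (NM_152293.2) had 1482 and 1867 counts in the knockdown libraries, against 2025 and 2550 in the control libraries, or 98.0 and 109 CPM in knockdown cells against 128 and 158 CPM in control cells. All values of the knockdown lay below those of the control, and the control libraries stood further apart than those of the knockdown. TADA2B had a log2 fold change of -0.47 ± 0.18, with a 95% interval of -0.85 to -0.083, which did not pass (adjusted p = 0.0876, edgeR's quasi-likelihood test). Without control replicate 2 it was -0.29 (adjusted p = 0.546) and without control replicate 1 it was -0.61 (adjusted p = 0.127, both edgeR). In the authors' deposited table TADA2B has a q-value of 0.0266. TADA3, the adaptor shared by SAGA and ATAC, was read from a sparse row (NM_133480.2) with 7 and 4 counts in the knockdown libraries, against 23 and 14 in the control libraries. This row passed the filter through the control libraries, where it was higher. Its log2 fold change of -1.73 ± 0.84 did not pass (adjusted p = 0.175), and the 95% interval ran from -3.53 to 0.077. Leaving out a library moved it between -2.24 without knockdown replicate 1 and -1.30 without knockdown replicate 2.

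Of the core subunits among the members, TADA1 was the best counted. Its row (NM_053053.3) had 774 and 820 counts in the knockdown libraries, against 637 and 556 in the control libraries, or 51.2 and 47.7 CPM in knockdown cells against 40.2 and 34.4 CPM in control cells. Both knockdown libraries lay above both control libraries. The log2 fold change was 0.41 ± 0.20 and did not pass (adjusted p = 0.182), with a 95% interval of -0.025 to 0.84 on the log2 scale, so that a fold change up to 1.79 is inside it. In the authors' deposited table TADA1 has a q-value of 0.0756.

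SUPT20H, a core subunit also known as an interactor of the kinase p38, and SUPT7L, the human relative of yeast Spt7, were counted in several sparse rows. The main row of SUPT20H (NM_001278480.1) had 85 and 79 counts in the knockdown libraries, against 115 and 116 in the control libraries. This is a log2 fold change of -0.50 ± 0.33 (adjusted p = 0.33). Its row NM_001014286.2 had 56 and 49 counts in knockdown and 54 and 72 in control libraries, with a log2 fold change of -0.26 ± 0.41, and its row NM_017569.3 had 6 and 2 counts in knockdown and 3 and 4 in control libraries and was not tested. The groups were apart in the main row and overlapped in the next. The main row of SUPT7L (NM_001282730.1) had 76 and 44 counts in the knockdown libraries, against 85 and 69 in the control libraries. Its groups overlapped, since knockdown replicate 1 lay between the control libraries in CPM. That row had a log2 fold change of -0.35 ± 0.42 (adjusted p = 0.62), and without knockdown replicate 2 it was 0.071. Its other row, NM_001282729.1, had 18 and 7 counts in knockdown and 10 and 9 in control libraries (log2 fold change 0.41 ± 0.84, adjusted p = 0.79). None of the tested rows of SUPT20H and SUPT7L passed.

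TRRAP is a pseudokinase of the PI3-kinase-related family and also a subunit of the TIP60 acetyltransferase complex. Its row (NM_001244580.1) had 33 and 36 counts in the knockdown libraries, against 27 and 23 in the control libraries, on a transcript of 12677 bases. Both knockdown libraries were above both control libraries in CPM. The log2 fold change of 0.45 ± 0.53 did not pass (adjusted p = 0.618), and its 95% interval, -0.70 to 1.60, holds both a decrease and an increase of more than 1.5-fold.

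**Figure D3:**
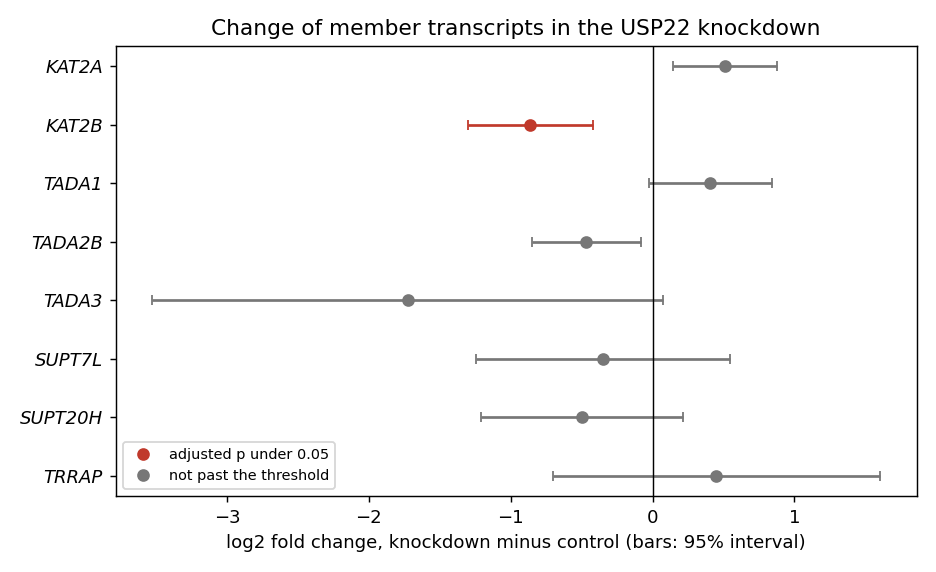
Log2 fold change of the main row of each gene, knockdown minus control, with its 95% interval from edgeR's quasi-likelihood fit. KAT2B (-0.86) is the row past the threshold, and the intervals of the sparse rows of TADA3, SUPT7L and TRRAP are the widest.

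Counted together, 1 of the 8 main rows fell, 0 rose and 7 did not pass in edgeR's quasi-likelihood test, and 3 had an unadjusted p under 0.05. Across all 12337 tested transcripts 10.2% fell and 8.49% rose, so that 1 of 8 is near the background. With DESeq2 and with limma-voom 1 of the 8 fell and 1 rose. Of the 3 members whose gene has a single RefSeq mRNA accession, KAT2B, TADA1 and TADA2B, 1 passed, against 28.1% of the 4456 tested transcripts of such genes. The groups did not overlap in 7 of the 8 main rows, with the knockdown above in KAT2A, TADA1 and TRRAP and below in KAT2B, TADA2B, TADA3 and SUPT20H. Among all tested transcripts 59.6% had groups apart in this way. The median log2 fold change of the 8 was -0.41, beside 0.00 over all tested transcripts, and single members lay on both sides of 0. Without TADA3, which passed the filter through the group where it was higher, the groups were apart in 6 of 7 and the median was -0.35. By the authors' deposited q-values 3 of the 8 passed, KAT2A, KAT2B and TADA2B, against 22.1% of all rows of that table.

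Ordered by CPM per kilobase, KAT2A stood first in both groups, with 104 ± 16.3 in knockdown and 73.2 ± 6.92 in control cells. TADA2B and TADA1 came next. In the knockdown they did not differ beyond their spread, with 23.8 ± 1.75 for TADA2B and 22.9 ± 1.12 for TADA1, whereas in control cells TADA2B was at 32.8 ± 4.85 and TADA1 at 17.3 ± 1.91. KAT2B followed with 5.47 ± 0.37 in knockdown and 9.94 ± 0.23 in control cells. SUPT20H was at 1.80 ± 0.25 CPM per kilobase in knockdown and 2.55 ± 0.02 in control cells. SUPT7L was at 1.66 ± 0.76 CPM per kilobase in knockdown and 2.11 ± 0.34 in control cells, and in the knockdown the range of SUPT7L held that of SUPT20H. TRRAP, with 0.169 CPM per kilobase in knockdown and 0.123 in control cells, and TADA3, with 0.136 in knockdown and 0.454 in control cells, were lowest. The place of the last 4 says little about their genes. Rows of genes with 3 or more RefSeq mRNA accessions, which TADA3, TRRAP, SUPT7L and SUPT20H are, had a median total of 118 counts over the 4 libraries, against 2624.5 for genes with 1. How reads common to several accessions were counted was not stated in the labels or the file.

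The libraries do not mark strand, so reads where genes overlap cannot be told apart. In GENCODE 29, KAT2B and TADA1 shared 0 exonic bases with another gene. KAT2A shared 405 exonic bases with AC099811.2, a protein-coding model on the same strand. TADA2B shared 188 with CCDC96 on the opposite strand, whose own row had 131 and 189 counts in knockdown and 165 and 193 in control libraries. TADA3, SUPT7L, SUPT20H and TRRAP also shared exonic bases with neighbours, SUPT7L for instance with SLC4A1AP, whose row was far better counted at 1971 and 2244 in knockdown and 1773 and 1516 in control libraries.

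Set beside the deubiquitinase module, KAT2A and USP22 stood in another order in each group. USP22 is the gene targeted, so its fall against KAT2A largely restates the knockdown. On the scale of CPM per kilobase the ratio of USP22 to KAT2A was 0.742 and 0.739 in knockdown libraries, against 8.24 and 6.31 in control libraries, so that USP22 lay below KAT2A in the knockdown and far above it in control cells. Of the 8 tested genes of the deubiquitinase list, which also holds the ataxin-7 adaptors and 2 proteases related to USP22, 1 fell, USP22 itself, and 0 rose, where 10.2% of all tested transcripts fell and 8.49% rose. The median log2 fold change of that list was -0.42, with USP22, the gene targeted, included. Several of its rows were sparse, ATXN7 for instance with 13 and 12 counts in knockdown and 20 and 30 in control libraries. Of the 9 remaining core genes, most of them TBP-associated factors, 2 rose and 0 fell, beside the same 8.49% and 10.2% over all tested transcripts. These were TAF6L, a histone-fold subunit (log2 fold change 0.72 ± 0.20, adjusted p = 0.0264), and SF3B3, which is also part of the splicing factor SF3B (1.07 ± 0.15, adjusted p = 0.000457). SF3B3 had 456 and 443 CPM in knockdown libraries, against 216 and 211 CPM in control libraries. TAF6L had 54.2 and 66.4 CPM in knockdown libraries, against 34.0 and 39.4 CPM in control libraries. The TAF6L call did not hold when control replicate 1, control replicate 2 or knockdown replicate 2 was left out (adjusted p = 0.194, 0.0535 and 0.0953).

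ATAC, the other complex that holds KAT2A or KAT2B, was represented by 8 tested genes that are not in SAGA. Of these 1 fell and 1 rose, which is near the 10.2% and 8.49% of all tested transcripts. YEATS2, which has a domain that reads acylated histones, had 145 and 132 CPM in knockdown libraries, against 330 and 315 CPM in control libraries (log2 fold change -1.22 ± 0.16, adjusted p = 0.000253). KAT14, a further acetyltransferase of ATAC, had a sparse row with 56 and 43 counts in knockdown and 10 and 2 in control libraries (3.02 ± 0.73, adjusted p = 0.0113). That row passed the filter through the knockdown libraries, where it was higher, so its call supports nothing here, and it is 1 of 15 RefSeq mRNA accessions of the gene. Without control replicate 1 the log2 fold change of KAT14 was 4.57 and without control replicate 2 it was 2.30, so its size rests on the control libraries. YEATS2 was past the threshold in all 11 alternative fits.

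Of 16 listed genes of the TIP60 complex, which shares TRRAP with SAGA, 9 were tested here, so they stand for a part of it. Of these 1 rose and 0 fell, near the 8.49% and 10.2% over all tested transcripts. RUVBL1, an ATPase, had 24.1 and 26.4 CPM in knockdown libraries, against 9.28 and 7.05 CPM in control libraries (1.63 ± 0.26, adjusted p = 0.00108), and 0.85 on the log2 scale with the rows of the gene summed (adjusted p = 0.0166). Of 19 listed genes of other acetyltransferases and their partners 16 were tested, and 2 rose and 0 fell, beside the same shares. HAT1, which acetylates newly made histone H4, had 26.1 and 20.4 CPM in knockdown libraries, against 11.7 and 14.4 CPM in control libraries (0.83 ± 0.26, adjusted p = 0.0386). JADE2, a subunit of the HBO1 complex, had a sparse row with 72 and 80 counts in knockdown and 25 and 28 in control libraries (2.84-fold higher, adjusted p = 0.0263). That row is 1 of 23 RefSeq mRNA accessions of the gene. Leaving out a library ended both calls: that of HAT1 without control replicate 1, control replicate 2 or knockdown replicate 1 (adjusted p = 0.218, 0.0548 and 0.122), and that of JADE2 without control replicate 1, knockdown replicate 1 or knockdown replicate 2 (adjusted p = 0.0628, 0.0542 and 0.0733). With the rows of a gene summed JADE2 did not pass either (adjusted p = 0.066).

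Genes of the HDAC and SIRT families, listed here as deacetylases whatever their main substrate, were called in both directions. Of 17 listed 12 were tested, with 3 lower, 1 higher and 8 not past the threshold. Over all tested transcripts 10.2% were lower and 8.49% higher. Without control replicate 1 a single deacetylase passed, HDAC11, and without knockdown replicate 1 the count was 5. SIRT5, a mitochondrial deacylase of the sirtuin family, fell, in a sparse row with 26 and 32 counts in knockdown and 107 and 63 in control libraries (-1.57 ± 0.44, adjusted p = 0.0252, but 0.203 without control replicate 1). The SIRT5 row is 1 of 22 RefSeq mRNA accessions of the gene. HDAC11 had 16.5 and 15.7 CPM in knockdown libraries, against 32.5 and 37.8 CPM in control libraries (-1.12 ± 0.23, adjusted p = 0.00419). HDAC3, the catalytic subunit of the NCoR and SMRT corepressor complexes, was the third that fell and is named after its value was seen (-0.64 ± 0.16, adjusted p = 0.0121). HDAC4, a class II deacetylase, was the one that rose, with 24.0 and 29.1 CPM in knockdown libraries, against 13.7 and 14.8 CPM in control libraries (0.90 ± 0.24, adjusted p = 0.0201). The HDAC4 call ended when control replicate 1, control replicate 2 or knockdown replicate 2 was left out (adjusted p = 0.106, 0.0563 and 0.0725).

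**Figure D4:**
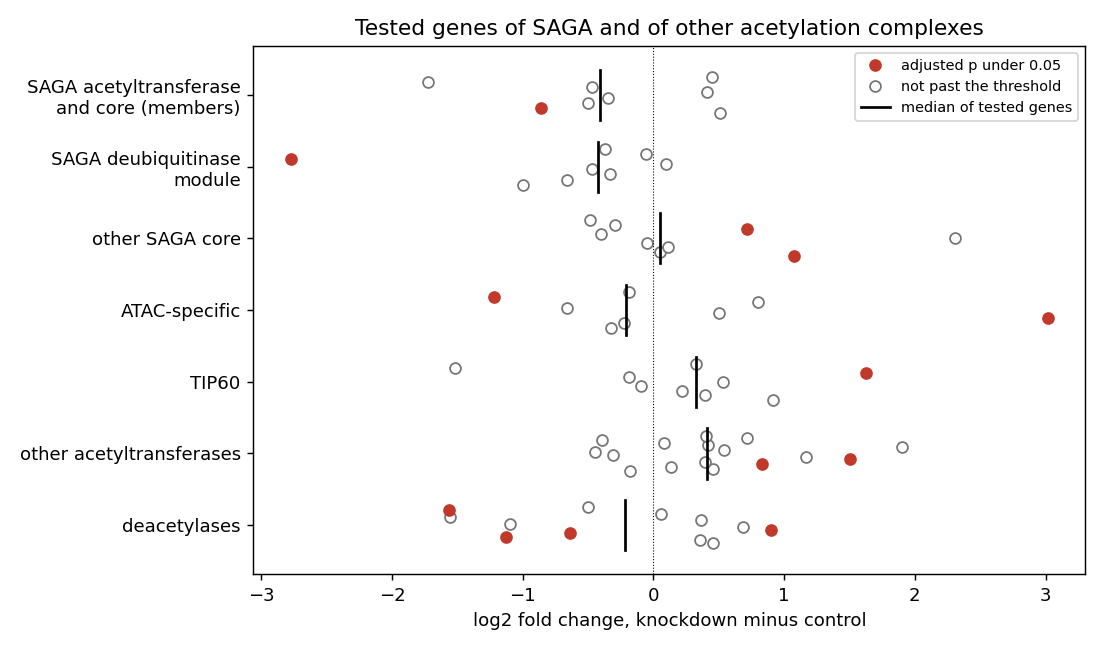
Log2 fold change, knockdown minus control, of every tested gene of SAGA, ATAC, TIP60 and the acetyltransferase and deacetylase lists by its main row, filled where the adjusted p is under 0.05, with a black line at the median of a list. The 8 members have 1 filled point (KAT2B), and the lowest point of all is USP22 at -2.77.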

How the data were processed

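RNA of 4 samples was sequenced with an unstranded kit, per the labels' protocols. The authors deposited raw counts per RefSeq mRNA accession beside their own p-value, q-value and log2 fold change, per the file headers. Tools named in the submitters' processing notes are HISAT2 2.1.0, HTSeq and bcl2fastq, with the build hg19 and no roles. The counting settings and the tool behind the deposited p-values are not stated in these sources.

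Counts were filtered with filterByExpr (minimum count 10, leaving 12337 of 14540 transcripts), TMM-normalized and tested with edgeR 4.0.16 (quasi-likelihood, knockdown minus control, no covariate) under R 4.3.3. Benjamini-Hochberg adjustment covered all tested transcripts, and calls needed an adjusted p under 0.05. The SE is the size of the log2 fold change divided by the square root of F, and 95% intervals use the t distribution of the fit. The common biological coefficient of variation was 22.1%. The fit was tested on simulated data. DESeq2 1.42.0 and limma 3.58.1 were alternatives, with other size factors, filters, summed rows, a replicate block and each library left out. Transcript lengths came from GENCODE 29, found for 95.9% of rows. Accessions per gene and promoters came from RefSeq (GRCh38.p14).

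Replicates differed by more than counting noise (chi-square per degree of freedom 33.7 in knockdown and 17.9 in control). The members and lists were chosen with earlier results of these data known. Named were all members and, per list, USP22 and up to 2 genes past the threshold in each direction. A log2 ratio of TADA2A to TADA2B was not computed, as TADA2A was not analysed here.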

Additional observations from a re-analysis of the deposited data

How the results depend on the processing

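The sign of the log2 fold change of 7 of the 8 members was the same in every alternative run. For SUPT7L, leaving out a library gave -0.87 to 0.071, the last without knockdown replicate 2. The count of members that rose was 1 in place of 0, the member being KAT2A, with DESeq2 size factors, a filter of 5 CPM, DESeq2, limma-voom, rows summed per gene and the replicate block, and 0 to 1 with a library left out. The count that fell was 2 with the replicate block, which added TADA2B (adjusted p = 0.0118), and 0 to 1 with a library left out. With a library left out 1 to 3 other core genes, 1 to 2 TIP60 genes, 0 to 1 other acetyltransferase genes and 1 to 5 deacetylases were called. The count of other acetyltransferase genes was 1 with the 5 CPM filter and with rows summed, and that of TIP60 genes 2 with the block. Over all transcripts the block gave 1672 higher and 1859 lower, and leaving out a library gave 685 (without control replicate 1) to 1340 higher, against 1047 in the fit reported. Rows summed per gene put SUPT20H at 3.06 in knockdown and 3.99 in control CPM per kilobase, as its other rows were added and divided by the length of the main row. The cause of the other differences between fits was not tested.

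The labels do not say that replicate numbers pair the libraries, and deviations of same-numbered libraries correlated across transcripts with r = 0.112, so the block result stands here alone. With 2 libraries a group, fits that leave 1 out assume that the lone library varies like the other group. The rows of TADA3, TRRAP, SUPT7L and SUPT20H were under 10 CPM in every library, and the part of depth and of the counting of reads shared by accessions in this was not tested.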
